A study of Mus musculus with 6 samples.

Results

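Genes that mark neural stem cells, Nes, Sox2, Prom1, Msi1, Msi2, Bmi1, Fabp7, Pou3f2 and Aldh1a3, were followed in RNA-seq of mouse brain tumors. They were chosen by name, and all 9 were found among the 16729 genes of the deposited table. Tumors were grown from mG7080, a gliomasphere culture of a mouse glioblastoma model with mutations in tumor suppressor genes that include p53 and Nf1, which was injected into the brains of C57BL/6 mice that were either wild type (WT) or knockout for Esm1 (ESM1-KO, here KO). Esm1 encodes Endocan, a proteoglycan that vascular endothelial cells secrete, and the question behind the comparison was how its loss from the host alters the tumor. The mice are described as female, which some of the libraries go against as set out further on. They were 6 to 8 weeks old by the methods, whereas the study's reporting summary gives an older range, and 500000 cells were injected. By the design the same cells were injected for all 6 tumors, so the Esm1 deletion was in the host alone and the injected cells kept the gene. How large a part of each library came from the injected cells was not measured. RNA came from tumor tissue, which holds host cells as well, and there were 3 libraries per group (WT 1, WT 2, WT 3, KO 1, KO 2 and KO 3). In such bulk tissue, fewer cells of a type and less RNA per cell cannot be told apart.

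Neural stem cells divide to renew themselves and give rise to neurons and glia, and glioblastoma cells grown as spheres share many of their genes. Nestin (Nes) is an intermediate filament protein of these cells, and Fabp7 is a fatty acid binding protein of radial glia. Sox2 and Pou3f2 are transcription factors, Bmi1 is a subunit of Polycomb repressive complex 1, and the Musashi proteins Msi1 and Msi2 bind RNA and control its translation. Prom1 (CD133) is a membrane glycoprotein used to sort stem cells, and Aldh1a3 is an aldehyde dehydrogenase that makes retinoic acid. Several of these genes are not limited to stem cells. For example, Sox2, Fabp7 and Msi2 are also found in astrocytes or their precursors, and Pou3f2 in cortical neurons. The other members, Nes and Bmi1 included, are not thereby taken to be limited to stem cells.

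Promoter windows of 300 bases, from 250 bases before to 50 bases after the start site, were taken from RefSeq on GRCm38.p6, in which 7 of the 9 genes had at least 1 window. Msi1 and Aldh1a3 were not among them. Windows are printed for Nes, Fabp7, Sox2 and Bmi1 because these 4 genes turned out lower in KO tumors in part of the comparisons described here. They lie at chr3:87970843-87971142 (Nes), chr10:57784673-57784972 (Fabp7), chr3:34649745-34650044 (Sox2) and chr2:18676768-18677067 (Bmi1), all on the plus strand. The Sox2 window ends before the GENCODE start of Sox2 at chr3:34650405, so the annotations place that start site differently. Capitals mark the E-box CACGTG, the Sox core ACAAT, the octamer ATGCAAAT and the CCAAT box, each searched on both strands.
Nes: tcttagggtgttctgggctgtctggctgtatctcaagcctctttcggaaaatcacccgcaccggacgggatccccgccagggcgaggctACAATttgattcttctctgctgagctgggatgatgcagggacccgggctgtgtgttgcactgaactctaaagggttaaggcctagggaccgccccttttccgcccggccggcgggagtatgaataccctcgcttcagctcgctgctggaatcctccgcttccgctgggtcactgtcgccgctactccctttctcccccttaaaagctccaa
Fabp7: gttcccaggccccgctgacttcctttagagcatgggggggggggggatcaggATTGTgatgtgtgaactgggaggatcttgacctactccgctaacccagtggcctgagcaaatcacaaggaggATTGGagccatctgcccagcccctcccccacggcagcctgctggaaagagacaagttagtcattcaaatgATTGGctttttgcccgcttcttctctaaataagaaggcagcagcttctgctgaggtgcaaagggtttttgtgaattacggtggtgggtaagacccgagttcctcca
Sox2: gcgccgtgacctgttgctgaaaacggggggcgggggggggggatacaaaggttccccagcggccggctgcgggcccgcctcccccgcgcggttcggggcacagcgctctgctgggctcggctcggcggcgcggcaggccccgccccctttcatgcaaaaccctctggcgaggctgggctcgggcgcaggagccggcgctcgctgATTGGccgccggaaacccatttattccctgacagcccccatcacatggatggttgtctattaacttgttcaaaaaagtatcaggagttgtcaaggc
Bmi1: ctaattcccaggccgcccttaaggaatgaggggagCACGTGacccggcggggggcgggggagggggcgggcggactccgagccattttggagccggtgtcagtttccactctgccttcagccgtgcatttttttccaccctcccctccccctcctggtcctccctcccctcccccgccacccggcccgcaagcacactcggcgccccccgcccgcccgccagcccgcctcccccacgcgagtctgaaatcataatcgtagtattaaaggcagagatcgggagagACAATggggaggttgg
Counted in bases from the start site, the window of Nes held a single Sox core at -161, and that of Fabp7 held a Sox core at -198 and CCAAT boxes at -126 and -56. In the Sox2 window the only marked motif was a CCAAT box at -46. Bmi1 had an E-box at -215 and a Sox core at 34. Among all 32851 windows of 27025 genes, 31.0% held the Sox core, 37.4% the CCAAT box, 7.15% the E-box and 1.74% the octamer. The GC box GGGCGG, searched as well and not marked, was in 35.7% of all windows, and of the 4 printed windows that of Fabp7 lacked it. The octamer was in none of the members' windows, and the Sox core was in none of the windows of Prom1, Msi2 and Pou3f2. These matches describe letters only.

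Library depth was alike, with 17632070 to 22241832 reads counted on genes, so that a single read stood for 0.0445 to 0.057 CPM (counts scaled to library size with TMM factors of 0.8636 to 1.0974). On Esm1 itself 25, 21 and 82 reads were counted in the WT libraries (1 to 3), and 1, 24 and 4 reads in the KO libraries. The library labelled KO 2 thus had an Esm1 count like those of WT 1 and WT 2, so that its label is open to doubt, although the injected cells carry the gene too. Results are therefore given over all 6 libraries as labelled, without the library labelled KO 2, and over WT 1, WT 2, KO 1 and KO 3. These 4 are the only libraries that head columns in the paper's supplementary RNA-seq results, although a full set of mice per group is named for the RNA-seq elsewhere. The last 2 comparisons were chosen with the values of KO 2 known. Xist, the RNA of the inactive X chromosome in female cells, was at 2.89 and 2.37 CPM in WT 2 and WT 3, against 645.6 CPM in WT 1 and 1598, 807.8 and 1104 CPM in KO 1, KO 2 and KO 3. WT 2 and WT 3 thus held almost no Xist, which goes against female hosts for them. No KO library was like them, so Xist and host genotype were partly aligned in every comparison that holds WT 2 or WT 3. Ddx3y, on the Y chromosome, was at 32.5, 39.9 and 61.4 CPM in WT and at 2.74, 45.3 and 0 CPM in KO 1, KO 2 and KO 3, so all libraries but KO 3 held reads of this gene, WT 1 and KO 2 with high Xist included. Neuron, myelin, astrocyte and dividing cell markers also differed among the libraries, as described further on.

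Over all 6 libraries as labelled, none of the 9 genes passed an adjusted p of 0.05. By the same edgeR quasi-likelihood test, 0% of 16166 genes tested passed as lower and 0% as higher, and the smallest adjusted p was 0.184. Before adjustment, 27.1% of all genes and 0 of the 9 members had a p under 0.05. The median log2 fold change (KO over WT) of the members was -0.34, beside -0.02 over all genes tested. DESeq2 gave 1182 changed genes over the 6 libraries, edgeR's exact test 105 and limma-voom 0, and none of the 9 members was among them.

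Without the library labelled KO 2, 4 members were lower in KO tumors and 0 higher, against 28.3% of all genes lower and 24.5% higher. Over WT 1, WT 2, KO 1 and KO 3 the same 4 members, Nes, Fabp7, Sox2 and Bmi1, were lower and 0 higher, against 13.9% of all genes lower and 2.87% higher. DESeq2 and edgeR's exact test called the same number of members as lower, 4, but split all genes more evenly, into 3160 lower and 2679 higher and into 3577 and 2592. Nes and Fabp7 passed the study's further limit of a 4-fold difference as well, which 6.23% of all genes passed as lower. The members' median over these 4 libraries was -0.32 and that of all genes -0.03. Msi1, Msi2, Prom1, Pou3f2 and Aldh1a3 passed in none of the 3 comparisons. The 4-library calls of Fabp7, Sox2 and Bmi1 rested on both KO libraries and were lost without KO 1 or without KO 3, whereas that of Nes was kept in each case. In WT 1 against KO 1 and KO 3, all with high Xist, the log2 fold changes were -2.97 for Nes, -2.20 for Fabp7, -1.03 for Sox2 and -0.88 for Bmi1. This fit has a single WT library, and Ddx3y was still higher in WT 1 than in KO 1 and KO 3.

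**Figure D1:**
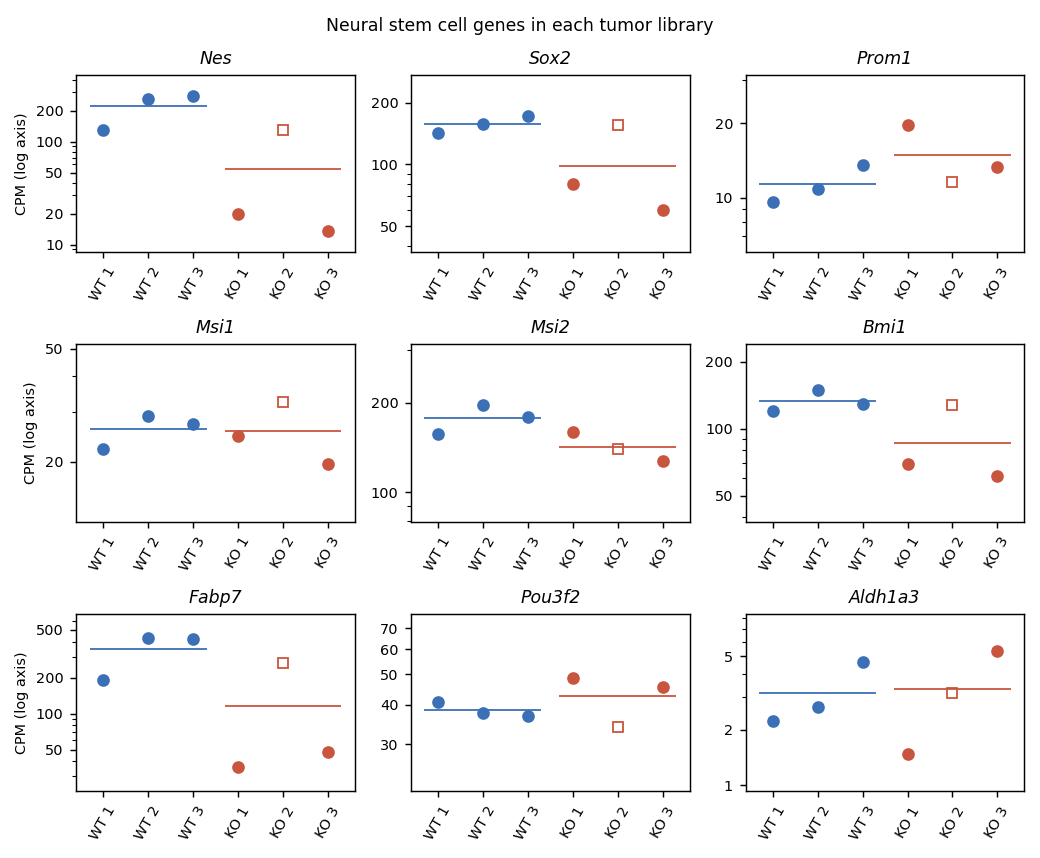
CPM of each gene in each library on log axes (blue circles, WT; red circles, KO 1 and KO 3; open red squares, the library labelled KO 2), with horizontal lines at the arithmetic mean of each group of 3. For Nes, Fabp7, Sox2 and Bmi1, KO 1 and KO 3 lie below the 3 WT libraries and KO 2 lies much nearer to them, while the other 5 genes show no such gap.

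Nes (Entrez 18008, chr3:87971078-87980451, plus strand, GRCm38, 4 exons in its longest transcript) differed most. It had 130.1, 259.9 and 280.1 CPM in WT 1, WT 2 and WT 3, whereas KO 1, KO 2 and KO 3 had 19.79, 129.0 and 13.48 CPM. Every KO library was thus below every WT library, which was the case for 14.6% of all genes tested and for Nes alone among the 9, but the library labelled KO 2 lay just under WT 1. Group means were 223.4 ± 81.4 CPM in WT and 54.09 ± 64.95 CPM in KO (SD, n = 3). The log2 fold change over the 6 libraries was -2.07 (SE, the standard error, 0.91, edgeR adjusted p = 0.189).

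Between WT 1 and WT 2 on one side and KO 1 and KO 3 on the other, mean Nes CPM stood in a ratio of 11.7. The log2 fold change over these 4 libraries was -3.56 (SE 0.44, edgeR adjusted p = 0.0343), and without KO 2 over the other 5 it was -3.74 (SE 0.43, edgeR adjusted p = 0.00798). Nes passed in all 11 alternatives run over the 4 libraries, with adjusted p from 8.33e-13 to 0.0489. Reads behind the lowest value numbered 259, in KO 3, so counting error was small beside the spread between libraries.

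Vim and Synm encode further intermediate filament proteins that pair with nestin. Vim had 478.1, 956.5 and 706.3 CPM in the WT libraries and 64.12, 360.2 and 43.84 CPM in KO 1, KO 2 and KO 3, with a log2 fold change of -3.74 (SE 0.49, edgeR adjusted p = 0.0343) over the 4 libraries and -2.22 (adjusted p = 0.184) over all 6. Within each library the ratio of Nes to Vim counts stayed close, at 0.272, 0.272 and 0.397 in WT and 0.309, 0.358 and 0.308 in KO. Synm did not pass over the 4 libraries, with a log2 fold change of 1.24 (edgeR adjusted p = 0.0696).

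Fabp7 (Entrez 12140, chr10:57784881-57788450, plus strand, 3 exons) was the most abundant of the 9 in each WT library. It was at 192.8, 428.3 and 417.1 CPM in WT 1, WT 2 and WT 3 and at 35.88, 264.1 and 48.21 CPM in KO 1, KO 2 and KO 3. KO 1 and KO 3 lay below all WT libraries, and the library labelled KO 2 fell inside the WT range, so that the groups overlapped. The log2 fold change over the 6 libraries was -1.60 (SE 0.83, edgeR adjusted p = 0.218).

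Over WT 1, WT 2, KO 1 and KO 3 Fabp7 was 7.39-fold lower in KO by mean CPM, with a log2 fold change of -2.90 (SE 0.46, edgeR adjusted p = 0.0343). It no longer passed without KO 1 (-2.68, adjusted p = 0.0596) or without KO 3 (-3.11, adjusted p = 0.0775), in fits that take the spread of the lone KO library from the WT libraries. Without the library labelled KO 2 over the remaining 5 it was -3.04 (edgeR adjusted p = 0.00809).

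Of the other fatty acid binding proteins, Fabp5, which is found in many proliferating cells, went from 94.93, 142.2 and 140.1 CPM in WT to 55.45 and 54.35 CPM in KO 1 and KO 3, with 116.1 CPM in KO 2. Over the 4 libraries it was lower (log2 fold change -1.12, edgeR adjusted p = 0.0453). Fabp3, a form found in neurons, was higher over the same libraries (1.5, edgeR adjusted p = 0.0442). The 3 binding proteins thus did not move in 1 direction.

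**Figure D2:**
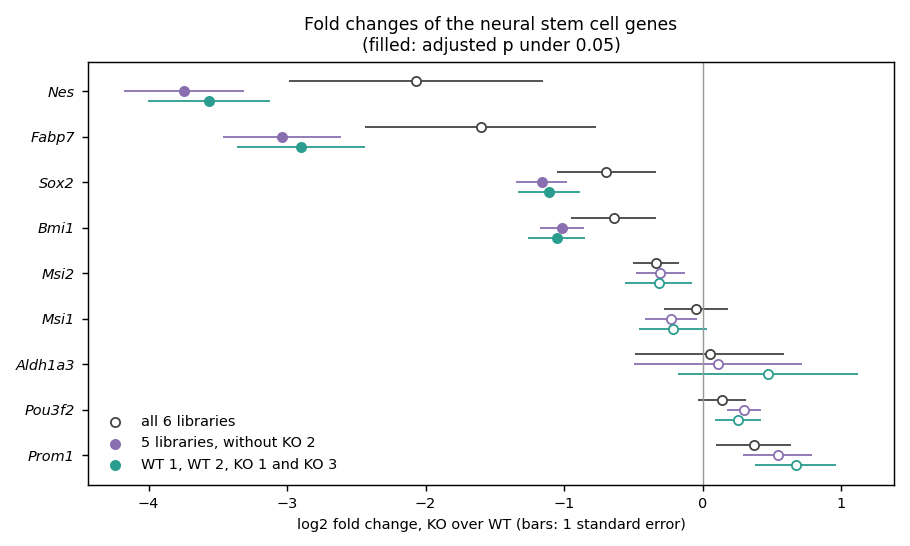
Log2 fold change of each gene, KO over WT, with bars of 1 standard error, over all 6 libraries, over 5 without KO 2 and over WT 1, WT 2, KO 1 and KO 3 (filled points, adjusted p under 0.05). Nes, Fabp7, Sox2 and Bmi1 are filled in the fits without KO 2, at -1.02 or lower, and no point is filled over all 6 libraries.

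Sox2 (Entrez 20674, chr3:34650405-34652461, plus strand, a single exon) was at 141.9, 157.1 and 171.5 CPM in the WT libraries and at 80.03, 154.8 and 59.61 CPM in KO 1, KO 2 and KO 3. The library labelled KO 2 fell inside the WT range and the other KO libraries below it. Its log2 fold change was -0.70 over all 6 libraries (SE 0.36, edgeR adjusted p = 0.217) and -1.16 without KO 2 (adjusted p = 0.00957).

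Over the 4 libraries Sox2 was 2.14-fold lower by mean CPM, with a log2 fold change of -1.11 (SE 0.23, edgeR adjusted p = 0.0407). Without KO 1 (-1.32, adjusted p = 0.106) or KO 3 (-0.90, adjusted p = 0.258) it no longer passed. The difference was smaller than that of Nes or Fabp7 on this scale. Counts of Nes per count of Sox2 were 0.917, 1.65 and 1.63 in WT and 0.247, 0.833 and 0.226 in KO 1, KO 2 and KO 3, so every KO library lay below every WT library in this ratio, which is a description without a test.

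Sox2 lies within Sox2ot, a long noncoding transcript on the same strand (chr3:34104270-34682619), and 0 of 18 annotated Sox2ot transcripts had an exon that overlapped Sox2. Sox2ot was at 43.87, 43.46 and 29.70 CPM in WT and at 55.67, 42.15 and 36.34 CPM in KO 1, KO 2 and KO 3, with a log2 fold change of 0.06 (edgeR adjusted p = 0.849) over the 4 libraries. Sox1 and Sox3 are the closest relatives of Sox2. Sox3 was at 39.83, 85.48 and 49.39 CPM in WT and at 2.909, 22.84 and 0.989 CPM in KO, and over the 4 libraries it was lower (-5.03, SE 0.67, edgeR adjusted p = 0.0343). Sox1 had a log2 fold change of 1.36 (edgeR adjusted p = 0.0625) over the 4 libraries and was higher without KO 2 (1.55, adjusted p = 0.0178), so the relatives of Sox2 went opposite ways in that fit.

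Pou3f2 (Entrez 18992, chr4:22482780-22488366, minus strand, a single exon), the other transcription factor, varied least. It was at 40.78, 37.73 and 36.85 CPM in WT 1, WT 2 and WT 3 and at 48.71, 34.01 and 45.50 CPM in KO 1, KO 2 and KO 3. KO 1 and KO 3 were above the WT range and the library labelled KO 2 below it. Log2 fold changes were 0.14 over all 6 libraries (SE 0.17, edgeR adjusted p = 0.560), 0.25 over the 4 (SE 0.17, adjusted p = 0.271) and 0.30 without KO 2 (adjusted p = 0.0834). Counts of Sox2 per count of Pou3f2 were 3.48, 4.16 and 4.65 in WT, 1.64 and 1.31 in KO 1 and KO 3, and 4.55 in KO 2.

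Its paralogs, which encode POU factors of the developing brain, gave no call over the 4 libraries. Pou3f1 had a log2 fold change of 1.08 (edgeR adjusted p = 0.0743), Pou3f3 of -0.65 (adjusted p = 0.133) and Pou3f4 of 0.16 (adjusted p = 0.781). Without KO 2 Pou3f1 alone of these passed (1.20, adjusted p = 0.0210).

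Bmi1 (Entrez 12151, chr2:18677018-18686629, plus strand, 10 exons) was at 119.9, 149.7 and 128.8 CPM in WT and at 69.65, 128.1 and 61.17 CPM in KO 1, KO 2 and KO 3. As for Sox2, the library labelled KO 2 fell inside the WT range and the other KO libraries below it. Its log2 fold change was -0.64 over all 6 libraries (SE 0.31, edgeR adjusted p = 0.199) and -1.02 without KO 2 (adjusted p = 0.00903).

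Over the 4 libraries Bmi1 was 2.06-fold lower by mean CPM (log2 fold change -1.05, SE 0.21, edgeR adjusted p = 0.0394), and it no longer passed without KO 1 (-1.14, adjusted p = 0.138) or KO 3 (-0.95, adjusted p = 0.236). Sox2 and Bmi1 kept a similar ratio to each other in every library, at 1.18, 1.05 and 1.33 counts of Sox2 per count of Bmi1 in WT and 1.15, 1.21 and 0.974 in KO. Commd3, whose annotated end lies 787 bases before Bmi1 on the same strand, had a log2 fold change of -0.23 (edgeR adjusted p = 0.351) over the 4 libraries, and counts of Bmi1 per count of Commd3 were 2.45, 2.52 and 1.94 in WT and 1.55, 2.13 and 1.28 in KO.

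Polycomb repressive complex 1 places ubiquitin on histone H2A through Ring1 or Rnf2, and Bmi1 stimulates that activity. A list of 17 other genes for subunits of such complexes included the Pcgf genes, which are paralogs of Bmi1. Over the 4 libraries 2 of the 17 were lower and 1 higher, where 13.9% and 2.87% of all genes were. The median log2 fold change of the list was -0.18. Rnf2, the main catalytic subunit, was lower (-0.86, SE 0.18, edgeR adjusted p = 0.0425), from 54.63, 65.12 and 68.38 CPM in the WT libraries to 32.69 and 34.00 CPM in KO 1 and KO 3 (52.08 CPM in KO 2). Ring1 had a log2 fold change of 0.47 (edgeR adjusted p = 0.105). Among the chromobox subunits, which read methylated histone H3, Cbx2 was lower (-2.78, edgeR adjusted p = 0.0348) and Cbx6 higher (1.34, adjusted p = 0.0468). Pcgf2, the closest paralog of Bmi1, had -0.26 (adjusted p = 0.308). Without KO 2 the list had 3 lower and 4 higher genes (28.3% and 24.5% of all genes), and over all 6 libraries 6 of the 17 had an unadjusted p under 0.05 (27.1% of all genes) and none passed after adjustment. These shares do not set the list apart from all genes.

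Neither gene of the RNA-binding pair passed in any comparison. Msi1 (Entrez 17690, chr5:115429599-115455698, plus strand, 15 exons) was at 22.17, 28.94 and 27.13 CPM in WT and at 24.70, 32.45 and 19.68 CPM in KO 1, KO 2 and KO 3. KO 2 was above all WT libraries, KO 1 within their range and KO 3 below it. The log2 fold change was -0.05 over all 6 libraries (SE 0.23, edgeR adjusted p = 0.886) and -0.22 over the 4 (SE 0.25, adjusted p = 0.511).

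Msi2 (Entrez 76626, chr11:88339382-88718513, minus strand, 14 exons) was at 156.6, 196.7 and 178.2 CPM in WT and at 158.8, 140.1 and 127.1 CPM in KO. KO 2 and KO 3 lay below the WT range and KO 1 just above WT 1. Its log2 fold change was -0.34 over all 6 libraries (SE 0.17, edgeR adjusted p = 0.205) and -0.32 over the 4 (SE 0.24, adjusted p = 0.334). For Msi2 the library labelled KO 2 stood between KO 1 and KO 3. Counts of Msi2 per count of Msi1 were 7.06, 6.80 and 6.57 in WT and 6.43, 4.32 and 6.46 in KO. Msi1 and Msi2 are each annotated with an antisense transcript, and the strand setting of the counting is not given in the sources used here.

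Prom1 (Entrez 19126, chr5:43993620-44102032, minus strand, 25 exons) was at 9.66, 10.90 and 13.57 CPM in WT and at 19.68, 11.62 and 13.33 CPM in KO 1, KO 2 and KO 3. KO 1 alone stood above the WT range. The log2 fold change was 0.37 over all 6 libraries (SE 0.27, edgeR adjusted p = 0.335), 0.67 over the 4 (SE 0.29, adjusted p = 0.131) and 0.54 without KO 2 (adjusted p = 0.115). Prom1 had from 203 to 345 reads in each library, and 1 of the genes annotated across it is antisense.

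Aldh1a3 (Entrez 56847, chr7:66390890-66427517, minus strand, 13 exons), which the study stained as a marker of mesenchymal glioma cells, was the least abundant. It had 47, 51 and 94 counts in WT and 26, 71 and 102 counts in KO 1, KO 2 and KO 3, or 2.236, 2.636 and 4.638 CPM against 1.483, 3.160 and 5.311 CPM. The lowest and the highest of the 6 values were both in KO libraries. For the lowest count of 26 the 95% exact Poisson interval was 16.98 to 38.1 counts, which covers counting error only. Log2 fold changes were 0.05 over all 6 libraries (SE 0.54, edgeR adjusted p = 0.947) and 0.47 over the 4 (SE 0.65, adjusted p = 0.585), and without KO 3 both were negative (-0.46 and -0.71).

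Of 13 other genes for making, binding and sensing retinoic acid, 0 passed over the 4 libraries by edgeR, where 5 of the 13 and 46.2% of all genes had an unadjusted p under 0.05, and the median log2 fold change was -0.07. The paralogs Aldh1a1 and Aldh1a2 had log2 fold changes of 0.68 (adjusted p = 0.211) and 1.14 (adjusted p = 0.173). Aldh1a2 had 6.90, 3.101 and 2.96 CPM in WT and 6.845, 15.05 and 15.31 CPM in KO 1, KO 2 and KO 3, so KO 1 stood with WT 1 and not with the other KO libraries. Crabp1, a cytoplasmic binding protein, had the lowest value of the list over all 6 libraries (-1.09, adjusted p = 0.224), and Aldh1a2 the highest (1.51, adjusted p = 0.184). Without KO 2 the list had 1 lower and 3 higher genes, against 28.3% and 24.5% of all genes.

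**Figure D3:**
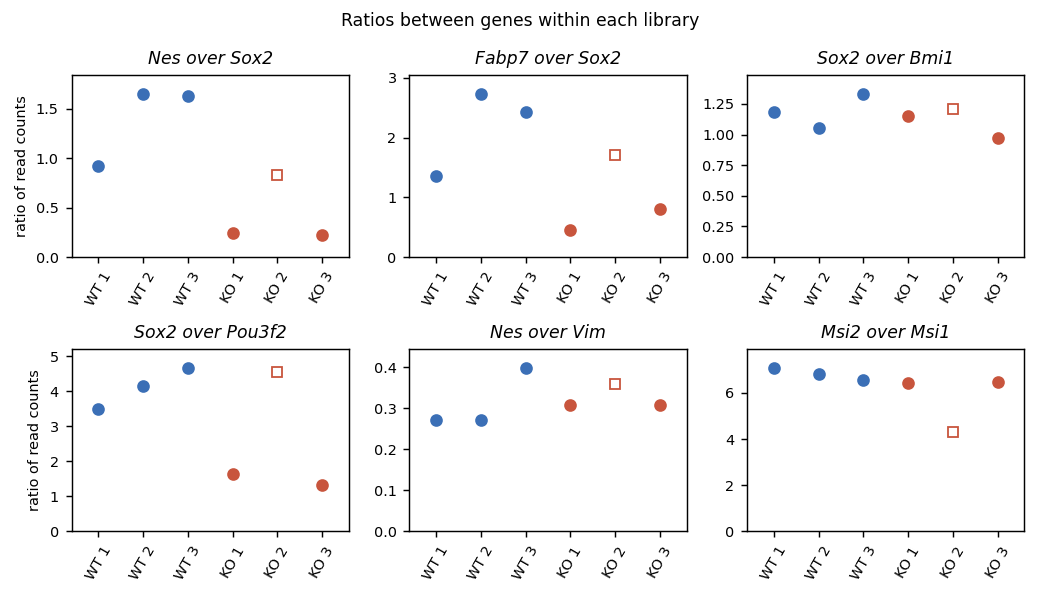
Ratio of the read counts of a pair of genes within each library, from 0 (blue circles, WT; red circles, KO 1 and KO 3; open red squares, the library labelled KO 2). Nes and Fabp7 have fewer reads per Sox2 read in KO 1 and KO 3 than in any WT library, while the ratios of Sox2 to Bmi1 and of Nes to Vim overlap between the groups.

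Levels per length were compared with the authors' FPKM. In WT libraries Fabp7 came first with 487.4 ± 197.8 FPKM (SD, n = 3), followed by Sox2 with 68.07 ± 7.92. Bmi1 (39.43 ± 5.82), Nes (39.08 ± 15.02) and Msi2 (29.13 ± 4.26) came next, where Nes overlapped both of its neighbours in range. Then came Msi1 (17.95 ± 2.98), Pou3f2 (6.52 ± 0.206), Prom1 (3.26 ± 0.620) and Aldh1a3 (0.995 ± 0.411), with no overlap between neighbours in that part of the order.

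In KO libraries Fabp7 was still first (154.4 ± 183.1 FPKM), but its values ran from 42.90 to 365.7, overlapping those of Sox2 (39.06 ± 24.2). Nes had 9.02 ± 11.4 FPKM and came after Bmi1 (23.32 ± 12.5), Msi2 (20.66 ± 3.25) and Msi1 (15.85 ± 5.68). In KO 1 and KO 3 Nes stood at 2.944 and 1.901 FPKM, below Prom1 in both libraries (4.821 and 3.095 FPKM). Pou3f2 (6.35 ± 0.681), Prom1 (3.74 ± 0.944) and Aldh1a3 (0.909 ± 0.480) closed the order as in WT.

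Replicate spread differed as much as the means. The highest WT library had 2.15 times the Nes CPM and 2.22 times the Fabp7 CPM of the lowest, WT 1 in both cases, against 1.21 for Sox2 and 1.11 for Pou3f2. Among the KO libraries the same quotient was 9.57 for Nes, 7.36 for Fabp7, 2.60 for Sox2 and 2.09 for Bmi1, with KO 2 the highest for each. For Msi2 it was 1.25 in KO and 1.26 in WT.

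A list of 35 other neural stem and progenitor genes, of which 4 stand in other lists too, was read in the same fits. Over WT 1, WT 2, KO 1 and KO 3, 16 were lower and 3 higher in KO (13.9% and 2.87% of all genes), with a median log2 fold change of -0.58. Fewer genes of the list passed without KO 1 or without KO 3, as was the case for all genes. Over all 6 libraries none passed by edgeR's quasi-likelihood test, 19 of the 35 had an unadjusted p under 0.05 (27.1% of all genes did), and the median was -0.52. Without KO 2, 17 were lower and 10 higher, where 28.3% and 24.5% of all genes were.

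Sox3 had the lowest and Emx2 the highest log2 fold change of this list over all 6 libraries (-2.73 and 1.63, both with an adjusted p of 0.184). Emx2, a homeobox gene that patterns the cortex, went from 5.044, 3.308 and 3.848 CPM in WT to 16.37, 6.41 and 15.31 CPM in KO 1, KO 2 and KO 3, and over the 4 libraries it was higher (1.91, SE 0.32, edgeR adjusted p = 0.0343). The others that were higher over these libraries were Lhx2 (1.66, adjusted p = 0.0459) and Hopx (0.92, adjusted p = 0.0393), named after their values were seen. So were the following examples. Among the lower genes, Olig2 (-2.65) encodes a lineage factor of glial progenitors, and Sox4 (-2.22) and Sox11 (-2.79) encode factors of immature neurons and glioma cells, all with an adjusted p of 0.0343. Pax6 (-0.11, adjusted p = 0.745) and Slc1a3 (-0.10, adjusted p = 0.826), genes of radial glia, were among those that did not pass. Other radial glia genes of the list did pass. Vim, described above, Ptprz1 (-2.00, edgeR adjusted p = 0.0415), Sox9 (-1.47, adjusted p = 0.0406) and Hes5 (-1.21, adjusted p = 0.0375) were lower, and Hopx was higher.

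**Figure D4:**
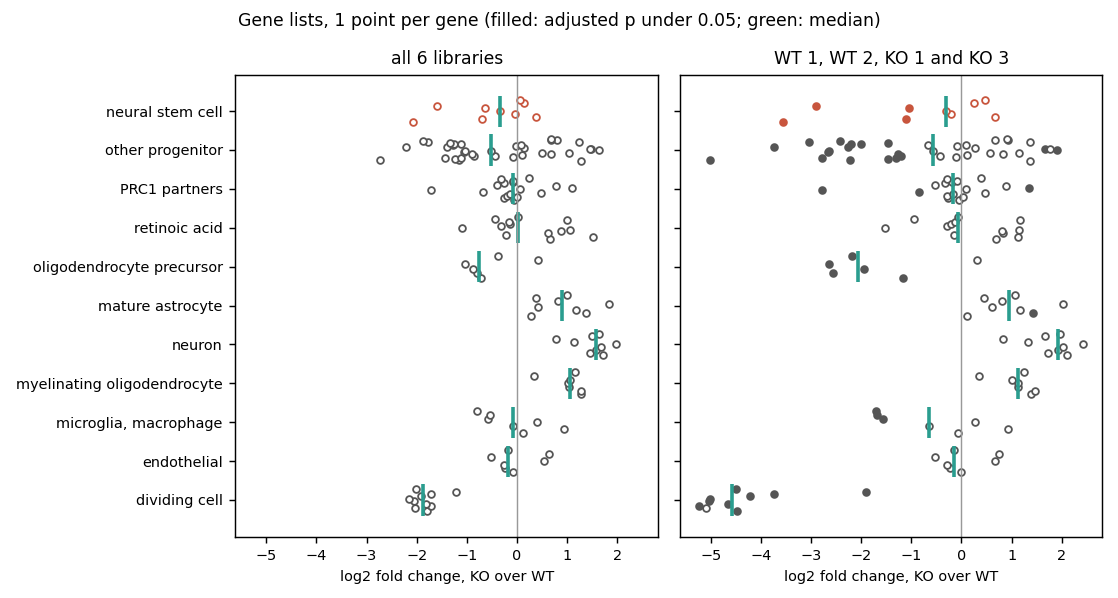
Log2 fold change (KO over WT) of each gene of 11 lists, over all 6 libraries (left) and over WT 1, WT 2, KO 1 and KO 3 (right), with filled points for an adjusted p under 0.05 and a green line at each list's median. The 9 neural stem cell genes have medians of -0.34 and -0.32, while dividing cell genes have -1.87 and -4.58 and neuron genes 1.57 and 1.92.

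Markers of some other cell types, though not of all, moved with these differences. Summed over 9 neuron genes, KO 1 and KO 3 had 11250 and 13840 CPM, the library labelled KO 2 had 4238 CPM, and the WT libraries had 1635 to 4910 CPM. Over the 4 libraries 8 of the 9 had an unadjusted p under 0.05 (46.2% of all genes) and 0 passed after adjustment by edgeR, with a median log2 fold change of 1.92. Without KO 2, 8 of the 9 neuron genes passed as higher, as did 5 of 8 mature astrocyte genes and 2 of 7 myelinating oligodendrocyte genes (24.5% of all genes). Mature astrocyte genes (8) summed to 5975 and 5365 CPM in KO 1 and KO 3, 3262 CPM in KO 2 and 1327 to 2588 CPM in WT. Such sums follow the most abundant genes. Slc1a2 held 4143 CPM of the KO 1 sum, while Aqp4 was at 153.0, 142.5 and 171.7 CPM in KO and 164.7, 134.3 and 81.85 CPM in WT. Of the 8 astrocyte genes, Gja1 alone passed as higher over the 4 libraries (1.42, adjusted p = 0.0476). Gfap and Sox9, astrocyte genes placed in the progenitor list, went the other way. Gfap was at 1092, 1143 and 1116 CPM in WT and at 247.3, 822.8 and 223.9 CPM in KO 1, KO 2 and KO 3. Over the 4 libraries Gfap had a log2 fold change of -2.26 (edgeR adjusted p = 0.0343) and Sox9 of -1.47 (adjusted p = 0.0406). Slc1a3, of that list and of astrocytes too, did not pass. Myelinating oligodendrocyte genes (7) summed to 7329, 3124 and 3774 CPM in KO 1, KO 2 and KO 3 and to 1289 to 3252 CPM in WT. Endothelial genes (7) summed to 146.6 to 199.7 CPM in KO and 144.5 to 185.3 CPM in WT. Mural genes (5) summed to 91.63 to 122.4 CPM in KO and 80.61 to 120.2 CPM in WT. Ependymal genes (5), of which Tmem212 was at 0 in KO 3, summed to at most 19.22 CPM in any library.

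Dividing cell genes (10), by contrast, summed to 1312, 2386 and 2238 CPM in WT, 147.9 and 58.78 CPM in KO 1 and KO 3, and 1452 CPM in KO 2. Of these 9 were lower over the 4 libraries, where 13.9% of all genes were, with a median log2 fold change of -4.58. Oligodendrocyte precursor genes (6) summed to 1560 to 1785 CPM in WT, 543.3 and 341.7 CPM in KO 1 and KO 3 and 2263 CPM in KO 2, and 5 of them were lower over the 4 libraries. Microglia and macrophage genes (7) summed to 562.9 to 627.0 CPM in WT and to 425.2, 825.5 and 402.5 CPM in KO. Of these 3 were lower over the 4 libraries, beside the same 13.9% of all genes. The 9 neural stem cell genes summed to 816.2, 1272 and 1258 CPM in WT and to 458.7, 897.3 and 393.4 CPM in KO. Of these sums Fabp7 held 428.3 CPM in WT 2 and 48.21 CPM in KO 3, and Nes 259.9 and 13.48 CPM. The sums thus do not speak for the 5 members that passed in no comparison. The part of these cell type markers and of Xist in the values of Nes, Fabp7, Sox2 and Bmi1 was not tested.

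**Figure D5:**
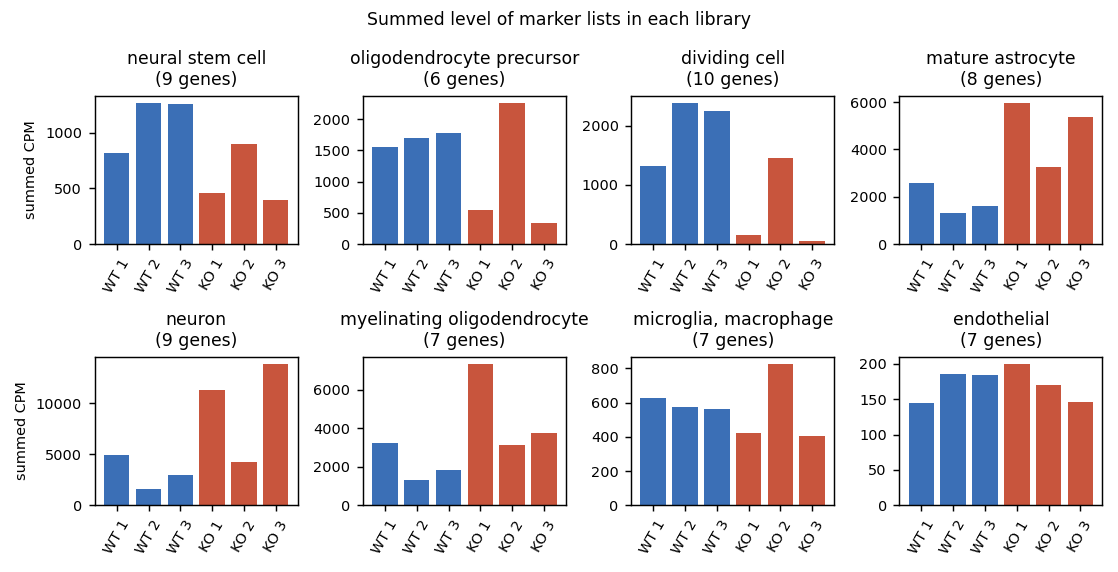
Summed CPM of each list in each library (bars from 0; blue, WT; red, KO), with the number of genes in each title. Sums follow the most abundant genes of a list. KO 1 and KO 3 have the lowest sums of neural stem cell, dividing cell and oligodendrocyte precursor genes and the highest sums of neuron and mature astrocyte genes, with KO 2 nearer to WT.

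Genes with the most similar profile were found for each member as the 3 with the smallest root mean square difference of centred log2 CPM over the 6 libraries. Those of Nes were Tyms, Cks1b and Hn1l, at 0.146 to 0.166, where the SD of Nes itself was 1.72. Fabp7 was nearest to Cd44, Cenph and Pla2g4c (0.133 to 0.154, SD 1.42). Tyms and Cks1b encode a nucleotide synthesis enzyme and a regulator of the cyclin-dependent kinases, Cenph a centromere protein, and Cd44 a hyaluronan receptor of glioma stem cells and astrocytes. Sox2 was nearest to Proser3, Inppl1 and Dok2 (0.0433 to 0.0567, SD 0.572), and Bmi1 to Wasf2, Fchsd2 and Lgmn (0.0438 to 0.0502, SD 0.487). Nearest to Msi2 were Elmod3, Fermt2 and Prkd1 (0.0297 to 0.038, SD 0.207), nearest to Msi1 were Thap3, Usp49 and Mospd3 (0.057 to 0.0661, SD 0.239), and nearest to Pou3f2 were Gid4, Pik3r4 and Sdhaf2 (0.0328 to 0.0458, SD 0.178). For Prom1 (Efcab4a, Nanos2 and Atad3aos, at most 0.128, SD 0.323) and Aldh1a3 (Nnmt, Slc16a5 and Arsi, 0.245 to 0.267, SD 0.600) the differences were larger relative to the member's own SD.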

How the data were processed

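RNA-seq was made from 6 tumors, 3 per group, grouped by the sample labels. The authors counted reads on genes, and the deposited table gives raw counts without normalization, beside FPKM per gene and library, which the authors computed and which were used here only to compare levels between genes. It also holds the authors' own fold changes, p-values and normalized values, which were not used. Per the labels, the NEBNext Ultra kit, CASAVA 1.8.2, edgeR and mm10 were used, and the methods of the paper differ (Ovation Ultralow kit, STAR, hg38). The deposited genes carry mouse symbols and chromosomes. Genes with counts in fewer than 4 libraries, or with fewer than 5 counts in all of them, are not in the table.

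The test was run with edgeR 4.0.16 in R 4.3.3 (filterByExpr with minimum count 10 and minimum total 15, TMM, quasi-likelihood F test, Benjamini-Hochberg adjustment over all genes tested). Standard errors (SE) were obtained by dividing the log2 fold change by the root of its F value. "Passed", "lower" and "higher" mean an adjusted p under 0.05. All 9 members passed the filter. The labels do not say whether tumors of a group shared a cage, litter or batch, and p-values measure the spread between these tumors. An exact permutation test of 3 against 3 cannot go below p = 0.1 and was not used. As alternatives, scaling was by RLE or upper quartile, genes were unfiltered or kept at a mean of at least 10 counts, and the test was DESeq2 1.42.0, limma-voom (limma 3.58.1) or edgeR's exact test, with a replicate block or each library left out in turn besides. The fit was also run on simulated counts with known changes. Both groups had the same spread there, unlike the KO and WT libraries here, so the simulation does not speak to that difference.

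The members and lists were chosen with earlier results of these data known. Named genes were all members, the lowest and highest gene of lists of progenitor, PRC1, retinoic acid and related genes, direct partners and paralogs of members, and the 3 nearest profiles (log2 CPM with a prior count of 2). Positions came from GRCm38 (GENCODE) by symbol and were checked against the chromosome in the table. Plots were drawn with matplotlib 3.10.9 and pandas 2.3.3 in Python 3.11.15. Some items are not reported here.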

Additional observations from a re-analysis of the deposited data

How the results depend on the processing

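The number of calls over all 6 libraries depended on the test and on the library labelled KO 2. DESeq2 gave 1182 genes (425 lower, 757 higher) and 8 progenitor genes, and edgeR's exact test gave 105 genes (39 lower, 66 higher) and 4 progenitor genes, against 0 by the quasi-likelihood test. With each library left out in turn, the calls ran from 0 to 8594 over all genes, from 0 to 4 for the members and from 0 to 27 for the progenitor list, and the upper ends all came without KO 2. Over the 4 libraries the quasi-likelihood test gave 2708 genes (2244 lower, 464 higher), DESeq2 5839 (3160, 2679) and edgeR's exact test 6169 (3577, 2592), and the progenitor list went from 16 lower and 3 higher to 16 and 9 by both. Leaving out each of these in turn gave 252 to 8748 genes, 1 to 4 members and 3 to 27 progenitor genes, with the lowest numbers without KO 3. Without KO 1 there were 1009 genes, 1 member and 8 progenitor genes, and without WT 1 8748 genes. The cause of these differences was not tested.

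Among the members, the direction changed for those with values near 0. Over all 6 libraries the log2 fold change of Aldh1a3 was -0.043 with limma-voom, and with each library left out it ran from -0.46 (without KO 3) to 0.45, being negative also without WT 1 (-0.16) and WT 2 (-0.06). Over the 4 libraries it ran from -0.71 (without KO 3) to 1.13. For Msi1 over all 6 libraries the range was -0.23 to 0.11, with positive values without WT 2, WT 3 or KO 3. Nes, Fabp7, Sox2, Bmi1 and Msi2 stayed negative, and Prom1 and Pou3f2 positive, in all 14 alternatives over 6 libraries and all 11 over the 4.

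Tumors carry the same replicate numbers in both groups, but neither the labels nor the methods say that a number marks a shared batch. For want of such a statement the numbers were not taken to pair the samples. Deviations from the group means of same-numbered libraries correlated at 0.549 (number 1), 0.594 (number 2) and -0.21 (number 3). KO 3 correlated best with WT 1 (0.541). Deviations within a group cancel out, so these correlations depend on each other and cannot decide whether a number marks a batch. With the replicate block 0 genes passed over all 6 libraries, as without it. The block moved Nes to -2.70 (edgeR adjusted p = 0.0749) and Fabp7 to -2.11 (adjusted p = 0.0705). It moved Bmi1 to -0.71 (adjusted p = 0.0777) and Sox2 to -0.81 (adjusted p = 0.1245). All of these were further from 0 than without the block and still short of passing. The value of Aldh1a3 turned to -0.0464. Low counts limit Aldh1a3 alone among the members, with 26 reads in its lowest library.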
